A study of Mus musculus with 12 samples.

Results

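The Dlk1-Meg3 imprinted cluster was followed through 5 of its genes in embryonic stem (ES) cells of the mouse, with 4 genotypes compared: the noncoding RNA genes Meg3, Rian and Mirg, and the protein-coding genes Dlk1 and Dio3. Members were taken by the gene symbol of each probe set on the array. Of these 5 genes, 4 had a probe set with a single symbol, among 18193 such genes in all, and Dio3 was not analysed here. The 4 genes had 19 of the 34945 probe sets with a single symbol: 11 for Meg3, 4 for Rian, 2 for Mirg and 2 for Dlk1. A filter on low signal left 18 of the 19, and the probe set removed was 1442724_at of Dlk1. The genes were chosen from measured values, the signals of the cluster in the mutants against wild type in these same arrays. Every comparison of a mutant with wild type is therefore given as a description, with a standard error and no test. The comparisons between mutants were tested, on mutant arrays that are also part of those known differences.

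RNA came from wild type cells, cells deficient for Ring1B, cells deficient for Eed, and cells deficient for both, with 3 arrays labelled as biological replicates for each genotype. Per the labels, each mutant was made by gene targeting, and Ring1B was targeted in Eed deficient cells to give the double deficient ones, so both of these genotypes lack Eed. The labels name 1 source for each genotype, name no treatment, and say that colonies looked undifferentiated. Whether the replicates were separate clones or cultures is not given in the sources used here, so standard errors and p-values measure the spread between these arrays, and a difference between genotypes also holds any difference between lines.

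Signals are MAS5 intensities on a linear scale, and changes are differences in log2(signal + 5), which understate the change of dim probe sets. Array medians ran from 19.07 to 28.01, and arrays of 1 genotype correlated at 0.969 to 0.979 over all probe sets. The targeted genes followed the labels: Eed fell from 1430 ± 159 (SD, n = 3) in wild type to 37.8 ± 13.1 in Eed deficient and 71.2 ± 21 in double deficient arrays. The brightest probe set of Rnf2, which encodes Ring1B, went from 851 ± 124 to 468 ± 65.7 in Ring1B deficient and 383 ± 18.8 in double deficient arrays, and where it lies relative to the deleted part is not given. A much dimmer Rnf2 probe set went the other way, from 29.9 ± 7.02 to 60.2 ± 8.27 in Ring1B deficient arrays. All 10 ES cell markers, Pou5f1, Nanog and Sox2 among them, lay above the array median in every array, and 6 of the 10 were called lower in double deficient than in wild type cells. Summed over 13 primitive and visceral endoderm markers, the signal was 746 to 872 in wild type, 4230 to 5930 (Ring1B deficient), 5810 to 9090 (Eed deficient) and 9360 to 11100 (double deficient), and 6 of the 13 lay above the array median in every wild type array. The part of these endoderm markers in the results below was not tested.

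The cluster lies on distal chromosome 12 and is expressed by parental origin. Meg3, Rian and Mirg are read from the maternal chromosome as long RNAs that host small nucleolar RNAs and microRNAs, while Dlk1, Rtl1 and Dio3 are read from the paternal one. A methylated control region between Dlk1 and Meg3 sets which genes are active, and Meg3 is known to be lost in some mouse pluripotent stem cell lines. Polycomb complexes silence genes through histone marks: Eed belongs to the core of the methyltransferase complex PRC2, and Ring1B is the ubiquitin ligase of PRC1.

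In the RefSeq annotation of GRCm38.p6, Dlk1 lies at chr12:109452485-109463336, Meg3 at chr12:109540996-109571729, Rian at chr12:109603945-109661716, Mirg at chr12:109734981-109749458 and Dio3 at chr12:110279230-110281097, all on the plus strand. From Dlk1 to Dio3 the interval spans 828.6 kb and holds 103 annotated genes, of which 61 are microRNA genes, 19 are small nucleolar RNA genes and 16 are long noncoding RNA genes. The 250 bases before the first annotated start of each noncoding host are shown because these 3 RNAs were all low in the mutants; capitals mark matches to 3 motifs searched on both strands, TGCCGC (the core hexamer bound by Zfp57), TGACGTCA (the cAMP response element) and TATAAA (the TATA box).
Meg3, chr12:109540746-109540995: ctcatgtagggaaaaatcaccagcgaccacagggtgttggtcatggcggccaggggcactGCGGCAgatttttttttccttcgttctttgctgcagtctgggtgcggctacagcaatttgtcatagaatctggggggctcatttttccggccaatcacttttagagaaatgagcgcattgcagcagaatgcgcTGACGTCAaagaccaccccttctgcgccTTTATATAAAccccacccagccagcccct
Rian, chr12:109603695-109603944: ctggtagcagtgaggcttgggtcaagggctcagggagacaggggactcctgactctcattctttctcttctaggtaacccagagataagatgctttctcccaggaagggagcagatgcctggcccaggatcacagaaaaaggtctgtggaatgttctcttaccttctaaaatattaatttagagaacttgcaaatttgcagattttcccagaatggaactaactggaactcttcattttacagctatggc
Mirg, chr12:109734731-109734980: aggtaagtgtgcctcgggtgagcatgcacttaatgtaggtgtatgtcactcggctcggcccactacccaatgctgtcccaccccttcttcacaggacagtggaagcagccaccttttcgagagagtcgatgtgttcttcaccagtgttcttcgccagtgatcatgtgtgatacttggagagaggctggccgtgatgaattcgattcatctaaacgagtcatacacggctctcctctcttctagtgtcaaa
The Meg3 sequence holds 1 TGCCGC, 1 TGACGTCA and 2 TATAAA matches, which overlap on opposite strands. The sequences before Rian and Mirg hold none of the 3. Among 32851 RefSeq promoters of the same length, 8.68% hold TGCCGC, 1.55% hold TGACGTCA and 12.4% hold TATAAA. CpG dinucleotides number 10 before Meg3, 0 before Rian and 10 before Mirg, against a median of 6 over all promoters. A second annotated start of Meg3, preceded by chr12:109545148-109545397, has 0 CpG and none of the 3 motifs there. These matches describe the letters only.

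The hosts are shown with mature microRNAs because a lower host signal concerns the RNA they are cut from. The microRNAs themselves were not measured on this array. In the interval RefSeq lists 113 mature microRNAs with 104 different seeds, and 9 seeds are shared by 2 microRNAs. The first 3 sequences below are 1 microRNA for each host, and the last pair, both inside Mirg, share a seed; capitals mark the seed, bases 2 to 8.
miR-770-5p in Meg3: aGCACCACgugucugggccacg
miR-370-3p in Rian: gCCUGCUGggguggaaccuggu
miR-410-3p in Mirg: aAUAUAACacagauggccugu
miR-453 in Mirg: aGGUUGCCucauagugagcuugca
miR-496a-5p in Mirg: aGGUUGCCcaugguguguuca

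The 3 noncoding RNAs were highest in wild type cells and low in all mutants. All 17 noncoding probe sets had their highest mean in wild type, and 14 of them had every wild type array above every mutant array, a pattern held by 3.54% of all 30027 probe sets that passed the filter. The choice of the members used this pattern, so nothing is read from that share. For description, 9 probe sets with a mean wild type signal of at least 100, or the highest mean of their gene on the log2 scale, were taken as the bright ones, a choice made after their values were seen. In these 9 the mean kept 1.437% to 25.16% of the wild type signal in Ring1B deficient cells (median 4.642%), where the lowest share is that of a probe set that read 10.2 or less. The mean kept 6.132% to 24.51% in Eed deficient cells (median 11.96%) and 10.75% to 34.29% in double deficient cells (median 15.96%). The order of means was wild type, double deficient, Eed deficient, Ring1B deficient in 8 of the 9. The other 8 probe sets had wild type means of 20.7 to 82.76 and kept medians of 31.76%, 39.29% and 45.27% in the same order of mutants. Lower levels could come from fewer cells that express these RNAs or from less RNA in each cell, and bulk RNA cannot tell these apart.

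**Figure D1:**
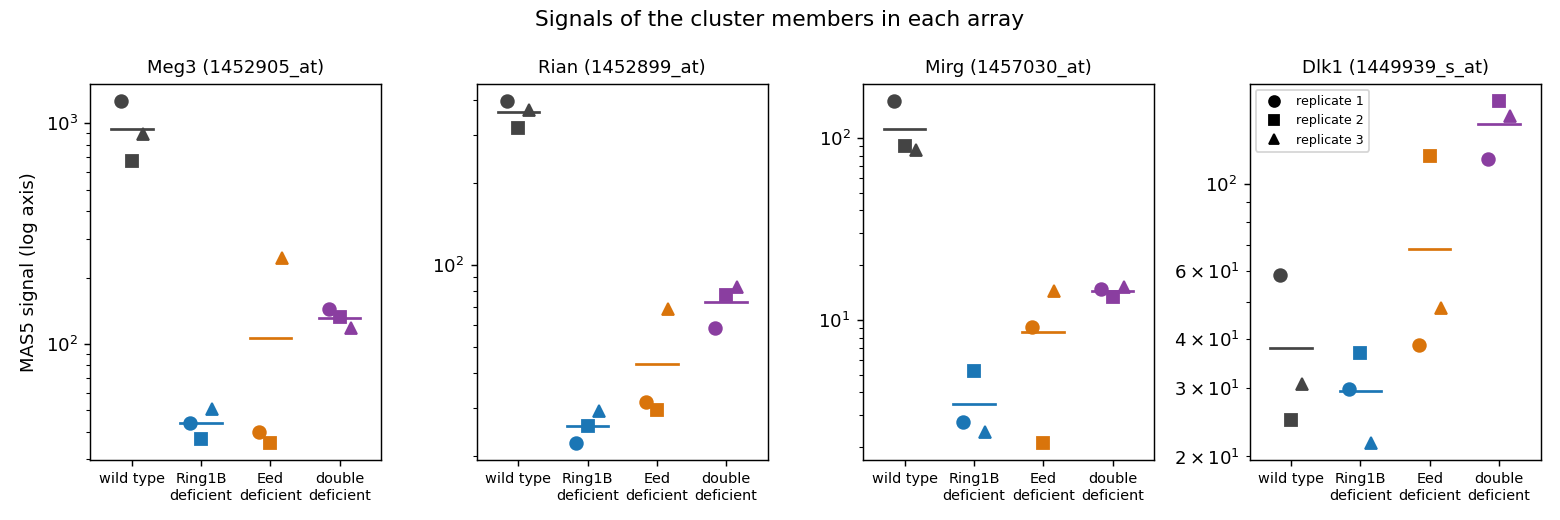
MAS5 signal (log axis) of 1 probe set each of Meg3, Rian, Mirg and Dlk1 in the 12 arrays. Points are arrays, marked by replicate number, and horizontal lines are genotype means of 3 arrays; wild type lies above every mutant array for Meg3, Rian and Mirg, and the highest Dlk1 signals are in double deficient replicates 2 and 3.

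Meg3, a long noncoding RNA that is a growth suppressor in several cell types, is described first by its probe set 1452905_at. Its signal was 1265, 675 and 894 in the wild type arrays. It was 43.9, 37.1 and 50.5 in the Ring1B deficient arrays and 39.9, 35.7 and 244 in the Eed deficient arrays. The double deficient arrays gave 144, 133 and 118. The lowest wild type array lay well above the highest mutant array, which was Eed deficient replicate 3. Means were 944.5 ± 298.1 (SD, n = 3) in wild type, 43.84 ± 6.684 (Ring1B deficient), 106.6 ± 119.2 (Eed deficient) and 131.7 ± 13.29 (double deficient). The differences from wild type were -4.24 (Ring1B), -3.58 (Eed) and -2.75 (double) in log2, each with a standard error of 0.49.

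The other bright Meg3 probe sets showed the same order of genotypes. Probe set 1439380_x_at fell from a mean of 1030 ± 183.2 (SD, n = 3) in wild type to 33.43 ± 12.59 (Ring1B deficient), 99.47 ± 108.9 (Eed deficient) and 141.1 ± 7.132 (double deficient). Probe set 1452183_a_at, at 452, 336 and 352 in wild type, read 10.2, 4.68 and 1.49 in Ring1B deficient arrays. It read 3.78, 3.64 and 62.5 in Eed deficient arrays and 43.5, 40.4 and 38.7 in double deficient arrays. It read 10.2 or less in 5 of the 6 single mutant arrays, so its log2 differences of -5.28, -4.47 and -3.06 (SE 0.58) depend on the added value of 5. Probe sets 1436713_s_at and 1426758_s_at had log2 differences of -4.29 and -2.68 in Ring1B deficient, -3.35 and -2.50 in Eed deficient, and -2.55 and -2.06 in double deficient cells. The 6 dim Meg3 probe sets differed by -2.82 to -0.41 for Ring1B deficiency, -2.31 to -0.52 for Eed deficiency and -2.21 to -0.20 for the double deficiency. Of these, 1452906_at (-2.82, -2.31 and -2.21) differed more than the bright 1426758_s_at for Ring1B and for double deficiency. The other dim ones differed less than every bright one. Which Meg3 transcript forms each probe set reads was not analysed here.

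Rian, a long RNA that carries a large array of C/D small nucleolar RNAs, was low in all mutants. Probe set 1452899_at read 399, 316 and 369 in wild type. It read 22.3, 25.6 and 29.2 in Ring1B deficient arrays, 31.5, 29.5 and 68.7 in Eed deficient arrays and 58.5, 77.6 and 82.8 in double deficient arrays. Ring1B deficient arrays lay below all others here, and Eed deficient replicate 3 lay among the double deficient arrays. The log2 differences from wild type were -3.58, -3.01 and -2.24 (SE 0.25). Probe set 1427580_a_at had means of 268.4 ± 10.69 (SD, n = 3) in wild type, 15.84 ± 2.805 (Ring1B deficient), 33.74 ± 14.14 (Eed deficient) and 44.55 ± 5.559 (double deficient), with log2 differences of -3.72, -2.88 and -2.47 (SE 0.22). For the 2 dimmer Rian probe sets, 1440001_at and 1428055_at, all 6 differences ran from -2.87 to -1.56, and no wild type array overlapped a mutant one.

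Mirg, whose transcript hosts microRNAs, was low in all mutants too. Probe set 1457030_at read 160, 90.1 and 85.4 in wild type and 2.77, 5.23 and 2.42 in Ring1B deficient arrays. It read 9.16, 2.12 and 14.5 in Eed deficient arrays and 14.8, 13.4 and 15.2 in double deficient arrays. The wild type arrays stood apart from all 9 mutant arrays, the highest of which read 15.2, and each mutant signal lay below the 40th percentile of its own array. The log2 differences were -3.75, -3.17 and -2.53 (SE 0.34). Probe set 1440097_at had means of 95.24 ± 35.95 (SD, n = 3), 23.96 ± 6.453, 23.34 ± 5.2 and 32.66 ± 9.968 in wild type, Ring1B deficient, Eed deficient and double deficient cells. Its log2 differences of -1.76, -1.78 and -1.39 (SE 0.26) put Eed deficient and not Ring1B deficient cells lowest by a small margin.

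Wild type replicate 1 had the highest wild type signal in 15 of the 17 noncoding probe sets. By the adjusted threshold of 0.05 in limma, which is not a test of these members, 15 probe sets were past it and lower in Ring1B deficient cells, against 1.59% of all 30027 probe sets. In Eed deficient cells 13 were lower, against 3.3% of all probe sets. In double deficient cells 12 were lower, against 8.71%, and 1, of Dlk1, was higher, against 15.2%. The choice of the members used these contrasts, so nothing is read from these shares. The 3 contrasts share the wild type arrays. The median log2 difference of the 18 probe sets was -2.75, -2.40 and -2.06, against -0.02, 0.004 and 0.09 over all probe sets.

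**Figure D2:**
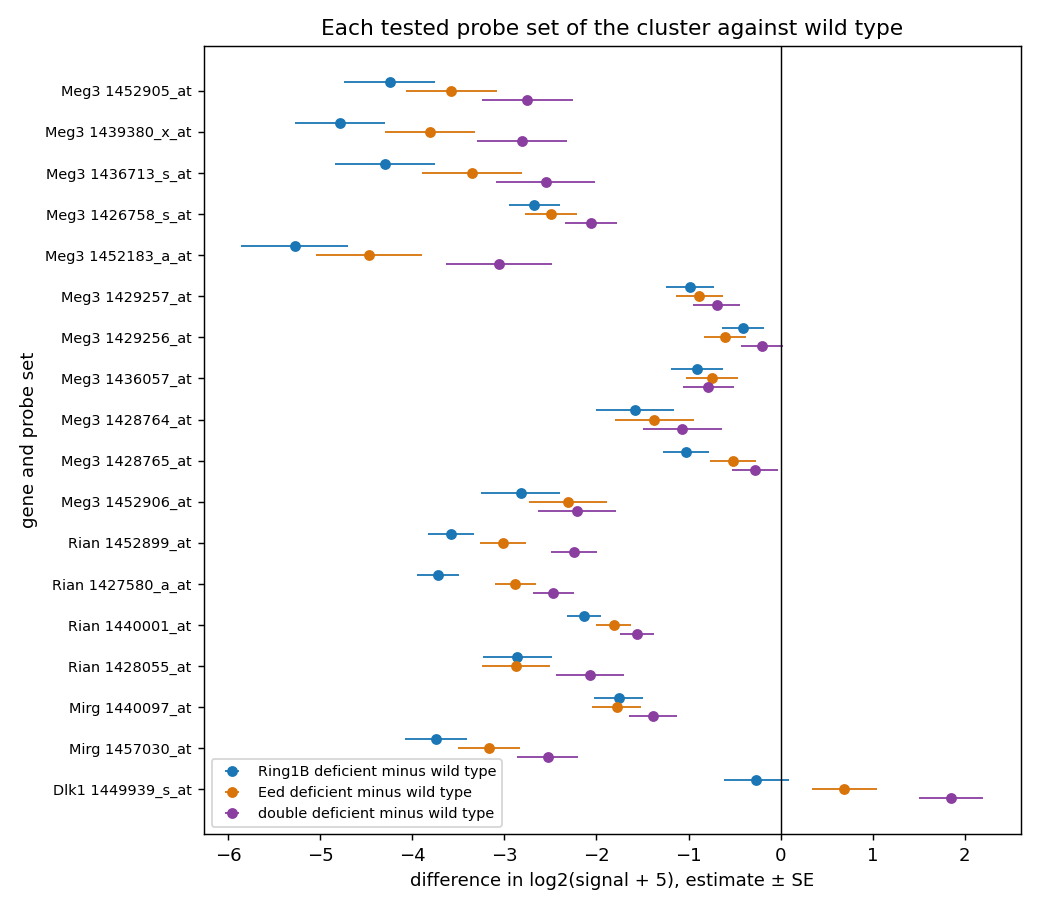
Difference from wild type in log2(signal + 5) for the 18 probe sets of the cluster that passed the filter, as estimate ± SE of the limma fit to 12 arrays. All 17 noncoding probe sets lie left of 0 in the 3 mutants, and the Dlk1 probe set runs from -0.26 in Ring1B deficient to 1.85 in double deficient cells.

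Dlk1, a transmembrane protein of the Notch ligand family that holds back adipocyte differentiation, did not follow the noncoding RNAs. Probe set 1449939_s_at read 58.5, 24.8 and 30.7 in wild type and 29.8, 36.8 and 21.7 in Ring1B deficient arrays, which overlap. It read 38.6, 118 and 48 in Eed deficient arrays and 116, 164 and 150 in double deficient arrays. Eed deficient replicate 2 was high, at the level of the lowest double deficient array, and the other Eed deficient arrays were within the range of wild type. The mean was 37.97 ± 17.99 (SD, n = 3) in wild type, 29.44 ± 7.562 (Ring1B deficient), 68.17 ± 43.36 (Eed deficient) and 143.2 ± 24.71 (double deficient). The log2 differences from wild type were -0.26, 0.69 and 1.85 (SE 0.35). The second Dlk1 probe set, 1442724_at, had genotype means from 2.405 to 8.612 and was not tested.

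Dio3, the deiodinase that inactivates thyroid hormone, and Rtl1, a retrotransposon-derived protein of the placenta, were not analysed here. Dio3os, the transcript opposite Dio3, was not above the filter: its probe set 1435121_at read 1.82 to 14.2 over all 12 arrays. The same held for 3110009F21Rik, another gene inside the interval, at 0.498 to 9.95. Dio3os read 14.2, 9.86 and 11.6 in Eed deficient arrays and 3.2, 12.6 and 7.83 in double deficient arrays, which also lack Eed. It read 3.64, 8.16 and 1.82 in wild type and 9.16, 5.83 and 6.08 in Ring1B deficient arrays. These signals were too low for it to be tested.

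The mutants differed among themselves. Against Ring1B deficient cells, double deficient cells were higher in all 18 tested probe sets by the estimate, and in 12 every double deficient array lay above every Ring1B deficient array, as in 22.9% of all tested probe sets. The median difference of the 18 was 0.77, against 0.10 over all probe sets. By the limma test, adjusted over all 30027 probe sets, 7 of the 18 were called higher, and 9.48% of all probe sets were called higher in this contrast. For Meg3 these were 1439380_x_at (log2 difference 1.98 ± 0.49 SE, adjusted p = 0.016), 1436713_s_at (1.74 ± 0.54, adjusted p = 0.047) and 1452183_a_at (2.22 ± 0.58, adjusted p = 0.022). The brightest, 1452905_at, missed the threshold at 1.49 ± 0.49 (adjusted p = 0.060). It passed when the limma fit also held the replicate number as a block (adjusted p = 0.016). For Rian, 1452899_at rose by 1.34 ± 0.25 (adjusted p = 0.0036) and 1427580_a_at by 1.25 ± 0.22 (adjusted p = 0.0027). For Mirg, 1457030_at rose by 1.21 ± 0.34 (adjusted p = 0.028), and for Dlk1, 1449939_s_at rose by 2.12 ± 0.35 (adjusted p = 0.0017). Mirg rests on the dim end of the array here: 1457030_at lay below the filter's level in all 9 mutant arrays and passed through wild type alone, and the other Mirg probe set, 1440097_at, was not called (0.37, adjusted p = 0.38). Meg3 1452183_a_at was likewise below that level in all 3 Ring1B deficient arrays. Of the 12 probe sets without overlap, Rian 1428055_at was above it in 0 of 9 mutant arrays and Meg3 1428765_at in 2. Meg3 1428764_at and 1452906_at, counted among the 18, were above it in 2 of 9. These too passed through wild type, so the counts of 18 and 12 rest in part on dim signals. The 18 probe sets read 4 genes, and the same limits hold for the other contrasts between mutants.

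The Rian and Dlk1 calls were made in all 12 fits that left out 1 array. Meg3 1439380_x_at lost its call without Ring1B deficient replicate 2 or double deficient replicates 1 or 3 (adjusted p = 0.057, 0.050 and 0.061). Meg3 1452183_a_at lost it without Ring1B deficient replicates 2 or 3 or any 1 double deficient array, with a highest adjusted p of 0.093, and Mirg 1457030_at without Ring1B deficient replicates 1 or 3 or any 1 double deficient array, also up to 0.093. Meg3 1436713_s_at lost it in 8 of the 12 fits, up to 0.13, and kept it only without wild type replicate 1 or 1 of the Eed deficient arrays. The count of 7 became 3 without double deficient replicate 3, where calls over all probe sets also fell, from 4109 to 2001. Meg3 1452905_at gained a call without any 1 Eed deficient array (adjusted p = 0.049, 0.035 and 0.00067 without replicates 1, 2 and 3), arrays that are not compared here but enter the shared estimate of the spread.

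Against Eed deficient cells, in which the double mutant was made, 0 of the 18 probe sets were called in double deficient cells by limma. This contrast called 1.28% of all probe sets, and 4 of the 18 had an unadjusted p under 0.05, against 16% of all probe sets. With the replicate number as a block in the limma fit, 2 of the 18 were called, Dlk1 1449939_s_at among them (adjusted p = 0.041). Calls over all probe sets then rose from 383 to 1950. The estimate was above 0 for 17 of the 18, with a median of 0.42, against a median of 0.07 over all probe sets. Under median centring the median over all probe sets was -0.10. Meg3 1452905_at differed by 0.82 ± 0.49 (adjusted p = 0.44), Rian 1452899_at by 0.77 ± 0.25 (adjusted p = 0.15), Mirg 1457030_at by 0.63 ± 0.34 (adjusted p = 0.37) and Dlk1 1449939_s_at by 1.16 ± 0.35 (adjusted p = 0.12). Without Eed deficient replicate 3 the count was 5, with Meg3 1452905_at at 1.67 (adjusted p = 0.0044) and Rian 1452899_at at 1.12 (adjusted p = 0.015). Without Eed deficient replicate 2 the Dlk1 probe set was called, at 1.61 (adjusted p = 0.032).

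Between the single mutants, 0 of the 18 were called by limma, 2.84% of all probe sets were called, and 3 of the 18 had an unadjusted p under 0.05, against 15.6% of all probe sets. With the replicate number as a block, 1 of the 18 was called, and calls over all probe sets rose from 853 to 2481. The largest differences with arrays that did not overlap were in Rian 1427580_a_at, 0.84 ± 0.22 higher in Eed deficient cells (adjusted p = 0.063), and in Dlk1 1449939_s_at, 0.96 ± 0.35 higher (adjusted p = 0.19). Without Eed deficient replicate 2, Rian 1427580_a_at was called, at 1.09 (adjusted p = 0.023). The sign of the estimate for Meg3 1452905_at turned on 1 array: it was 0.66 ± 0.49 (adjusted p = 0.59), and -0.18 without Eed deficient replicate 3. None of the 12 fits that left out 1 array called this probe set, with a lowest limma adjusted p of 0.3.

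Eed deficient replicate 3 stood apart in the noncoding RNAs. It was the highest Eed deficient array in 15 of the 17 noncoding probe sets, against 27.8% of 13984 genes in which it lay above both other arrays. Meg3 1452905_at was 6.461 times the mean of Eed deficient replicates 1 and 2 there, a difference of 2.54 in log2. Of all genes, 0.143% lay at least 2 in log2 above the mean of replicates 1 and 2 there. Replicates 1 and 2 kept 4.002% of the wild type signal of Meg3 1452905_at, and replicate 3 kept 25.86%. For Rian 1452899_at the shares were 8.438% and 19%, and for Mirg 1457030_at 5.04% and 12.99%. Mirg 1457030_at was below the filter's level in every Eed deficient array. Mirg 1440097_at, which was above that level there, kept 21.54% and 30.44%. Replicates 1 and 2 lay below every double deficient array in all 9 bright noncoding probe sets, and replicate 3 lay above every double deficient array in 6 of them. Dlk1 did not share this, at 48 in replicate 3 against 38.6 and 118.

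Markers of fibroblasts and of feeder cells, a layer on which ES cells are often grown, moved with these arrays. All 14 markers were higher in Eed deficient replicate 3 than in both other Eed deficient arrays, by a median of 0.98 in log2. Their summed signal was 5968 and 6138 in Eed deficient replicates 1 and 2 and 11720 in replicate 3. It was 4460 to 4830 in wild type, 3100 to 4100 in Ring1B deficient and 12000 to 12900 in double deficient arrays. None of the markers was at 0, and 13 of the 14 lay above the array median in every wild type array, with Lum the dimmest at 10.3 ± 1.82 (SD, n = 3). Of the other lists, 2 of 13 endoderm markers, 3 of 10 trophoblast markers and 0 of 10 ES cell markers were higher in replicate 3 than in both others. Against wild type, limma called 0 of the 14 in Ring1B deficient cells, with 3 at an unadjusted p under 0.05, and called 7 higher for Eed deficiency and 13 higher for the double deficiency. Wild type arrays had low fibroblast sums and the highest Meg3. The part of fibroblast or feeder RNA in the signals of the mutants was not tested.

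**Figure D3:**
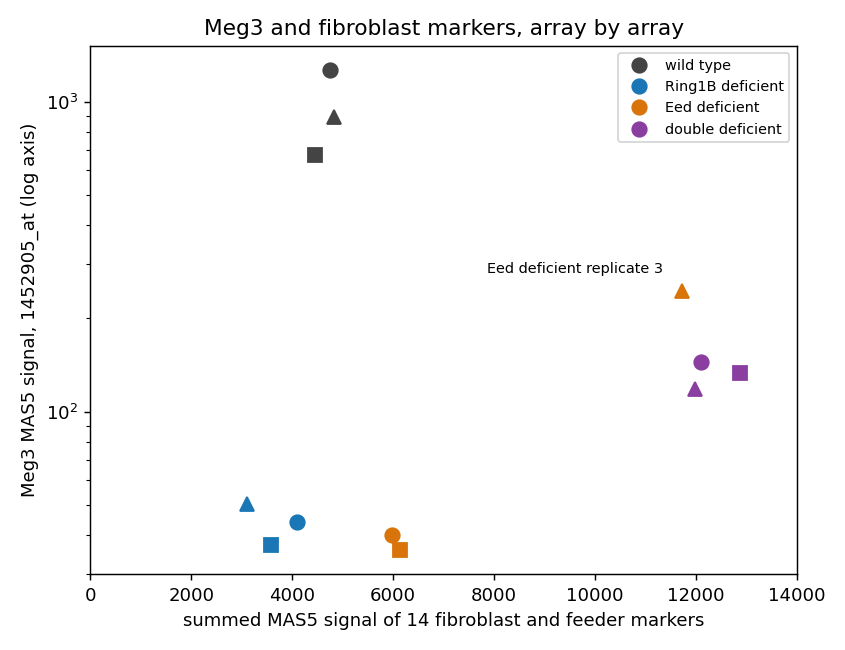
Meg3 signal of 1452905_at (log axis) against the summed signal of 14 fibroblast and feeder markers, with 1 point for each of 12 arrays, coloured by genotype and marked by replicate (circle 1, square 2, triangle 3). Wild type arrays lie at high Meg3 and low marker sums, and among mutant arrays the 4 with sums of 11720 to 12870, Eed deficient replicate 3 and the double deficient arrays, have the highest Meg3.

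Likeness to Meg3 1452905_at was measured by Pearson correlation of log2 values over the 12 arrays among 423 genes whose genotype means span at least 2 in log2. These 12 points share 4 genotypes, so the values describe a pattern. Rian was the most alike, at 0.9763. Mirg was not ranked, since the genotype means of its brightest probe set, 1440097_at, span less than 2 in log2. Among genes outside the cluster the highest were Efhc2 (0.8788), Fgf18 (0.8778), Neurod1 (0.8599), Actn3 (0.8588) and Slc27a2 (0.8517). Efhc2, for example, went from 85.6 ± 26.7 (SD, n = 3) in wild type to 13.8 ± 1.96, 27 ± 10.9 and 25.1 ± 7.98 in Ring1B, Eed and double deficient cells. Neurod1, a neuronal transcription factor, went from 468 ± 7.25 to 83.8 ± 9.97, 82.5 ± 21.9 and 96.2 ± 19.8. Dlk1 correlated at -0.096.

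Over the 9 mutant arrays alone the order was another one. The most alike genes were Lyz2 (0.9612), Twist2 (0.9557), Tm4sf1 (0.9540), Ctss (0.9539) and Lyz1 (0.9536), named here by their rank in this second set of arrays. Lyz2 is a lysozyme of myeloid cells and Lyz1 another lysozyme. Ctss is a protease of antigen-presenting cells and Twist2 a mesenchymal transcription factor. Lyz2 read 33.2 ± 13.8 (SD, n = 3) (Ring1B deficient), 140 ± 188 (Eed deficient) and 271 ± 55.6 (double deficient), and 46.4 ± 35 in wild type. Rian was at 0.8969 and Neurod1 at -0.012 over these arrays.

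Genes on either side of the cluster were examined within 1000 kb. Of 24 such genes with a probe set of a single symbol, 19 were tested. Against wild type, 1 was called higher and 1 lower for Ring1B deficiency, 2 and 1 for Eed deficiency, and 4 and 3 for the double deficiency. Over all 13984 genes tested, 6.18%, 13.7% and 29% were called in these contrasts. The largest flanking difference was in Amn, an endocytic receptor subunit of visceral endoderm, which rose from 32.9 ± 5.49 (SD, n = 3) to 123 ± 32.2, 89.1 ± 21.2 and 118 ± 31.2. Zfp839 fell from 159 ± 31.2 to 80.6 ± 8.18, 103 ± 9.72 and 78.6 ± 12.7. Cinp, a cell cycle and genome maintenance factor, rose by 0.69 and 0.55 in Eed deficient and double deficient cells. Of these, the limma adjusted p values ran from 0.0002 to 0.045. By the estimate, the lowest flanking difference in each mutant was that of Mok, 526.7 kb beyond Dio3. It was -1.03, -0.97 and -1.16 (SE 0.30) in Ring1B, Eed and double deficient cells.

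The nearest tested neighbours, taken by position, differed less from wild type than the bright noncoding probe sets. Those probe sets were chosen with their differences from wild type known, so nothing is read from that contrast. Before Dlk1, Wdr25 lay 424 kb away, Wars 558.3 kb and Slc25a47 595.7 kb, and 1 of their 9 comparisons with wild type was called: Slc25a47 rose by 0.89 in double deficient cells (adjusted p = 0.018). Beyond Dio3, Ppp2r5c lay 166 kb away, B930059L03Rik 310.3 kb and Dync1h1 320.3 kb, and limma called 0 of their 9 comparisons with wild type, with 1 at an unadjusted p under 0.05 and log2 differences from -0.97 to 0.19. Between mutants, limma called 1 flanking gene, B930059L03Rik, higher in double than in Ring1B deficient cells (1.17, adjusted p = 0.024). That call ended without Ring1B deficient replicate 2 or any 1 double deficient array. The other contrasts between mutants called 0 of 19, with 2 at an unadjusted p under 0.05 in each. Over all genes, 17% were called in double against Ring1B, 1.59% in double against Eed and 3.73% in Eed against Ring1B deficient cells.

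**Figure D4:**
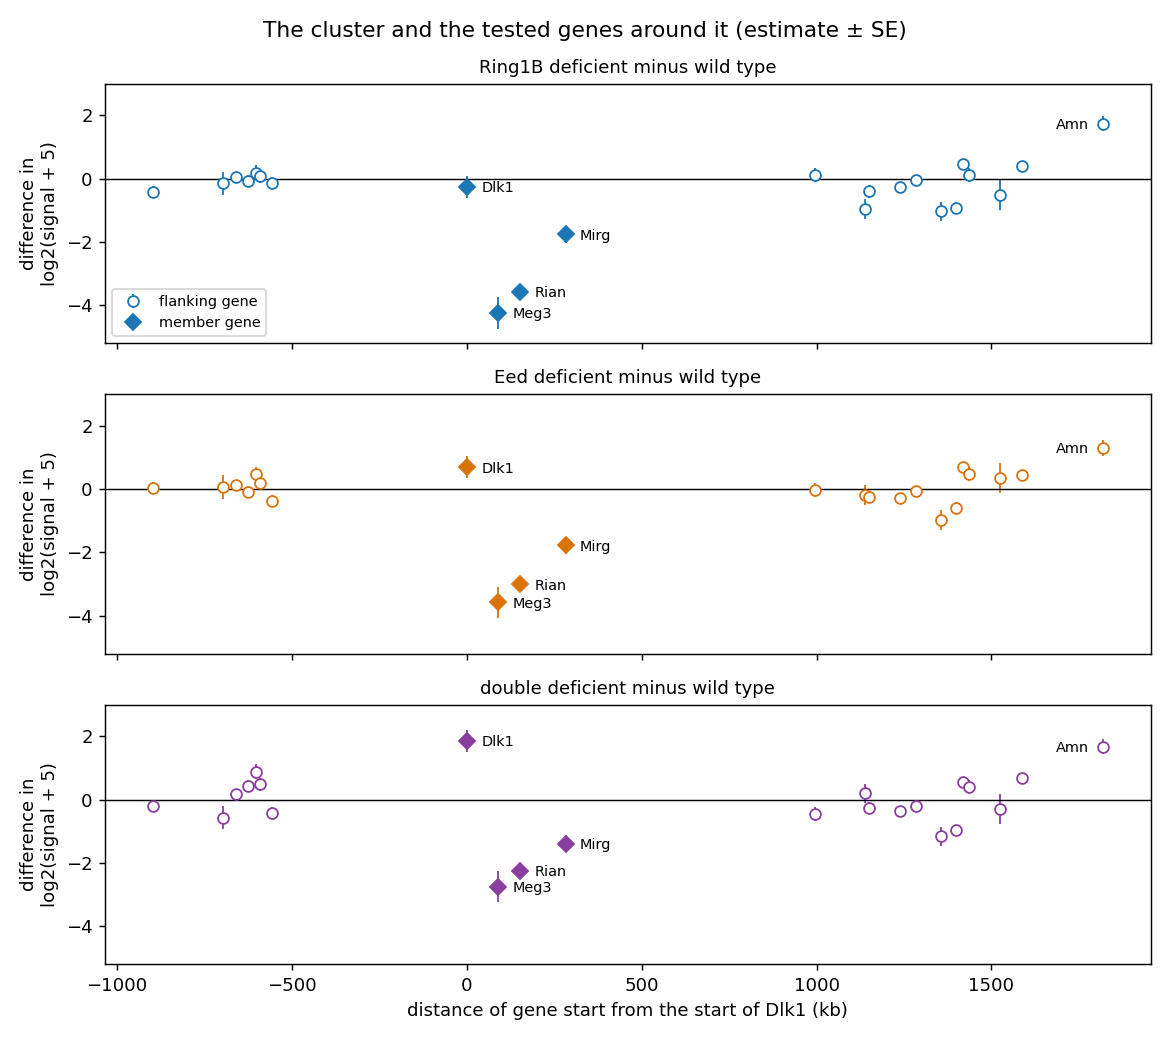
Difference from wild type in log2(signal + 5), as estimate ± SE, against the distance of each gene's start from the start of Dlk1 in kb, for the 4 measured members (filled diamonds, its brightest probe set by mean log2) and 19 flanking genes (open circles). Flanking genes lie between -1.16 and 1.73. Meg3 and Rian lie between -4.24 and -2.24, Mirg between -1.78 and -1.39, and Dlk1 between -0.26 and 1.85. The members were chosen with these differences known.

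Imprinted genes outside the cluster moved in both directions. Of 53 listed, 42 were tested. Against wild type, 3 rose and 3 fell in Ring1B deficient cells, 8 rose and 3 fell in Eed deficient cells, and 13 rose and 6 fell in double deficient cells, with median log2 differences of 0.01, 0.28 and 0.42 against 6.18%, 13.7% and 29% of all genes called. Mest, a paternally expressed gene of mesoderm and fat, had the largest fall of the list. It fell from 485 ± 108 (SD, n = 3) to 27.8 ± 7.02 in Ring1B deficient and 31.7 ± 7.61 in double deficient cells (log2 differences -3.90 and -3.74), and read 326 ± 49.6 in Eed deficient cells. Mest was thus lower in double deficient than in Eed deficient cells (-3.18, limma adjusted p = 1e-05). Mkrn3 fell in all mutants, and Nnat, Commd1, Phlda2, Trappc9 and Nap1l5 fell in some of them.

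Other imprinted genes rose. Igf2, the fetal growth factor, read 103 ± 65.5 (SD, n = 3) in wild type, 214 ± 66.9 (Ring1B deficient), 1090 ± 390 (Eed deficient) and 1570 ± 693 (double deficient), with calls in the last 2. Plagl1, a zinc finger factor, rose in all mutants (0.83, 2.34 and 2.84 in log2), as did Sfmbt2, a Polycomb group protein of trophoblast (1.31, 1.59 and 2.09). Peg3 rose by 1.43 (Eed deficient) and 1.57 (double deficient). Cdkn1c, a cell cycle inhibitor, rose by 1.15 in Ring1B deficient cells. Between mutants, double deficient cells had 13 higher and 1 lower than Ring1B deficient cells (17% of all genes called), 0 higher and 1 lower than Eed deficient cells (1.59%), and Eed deficient cells had 7 higher and 0 lower than Ring1B deficient cells (3.73%). The count of 1 against Eed deficient cells was 2 without Ring1B deficient replicate 2.

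Of 27 listed genes that set, keep, read or remove imprints or DNA methylation, here called imprint maintenance genes, 24 were tested. Against wild type, limma called 0 in Ring1B deficient cells, with 5 at an unadjusted p under 0.05, where 6.18% of all genes were called. It called 1 lower in Eed deficient cells, Arid4a, where 13.7% of all genes were called. In double deficient cells it called 3 lower, Arid4a, Dnmt1 and Uhrf1, where 29% of all genes were called. The largest differences of the list from wild type were not called, both in Ring1B deficient cells: Dppa3, a maternal factor that shields methylation in the zygote, went from 415 ± 147 (SD, n = 3) to 155 ± 88 (-1.46, adjusted p = 0.078), and Tet1, which oxidises methylated cytosine, from 1650 ± 311 to 715 ± 286 (-1.28, adjusted p = 0.058). Dnmt1, the maintenance DNA methyltransferase, fell from 490 ± 61.1 (SD, n = 3) to 316 ± 38.4 (-0.63, adjusted p = 0.015), and Uhrf1, which recruits it, fell from 945 ± 156 to 633 ± 17.8 (-0.56, adjusted p = 0.024). Zfp57 and Trim28, which hold methylation at imprints, and Dnmt3a, Dnmt3b and Dnmt3l were not called in any mutant, with the largest of their differences from wild type in Dnmt3a in Ring1B deficient cells (-0.84). Between mutants limma called 0 of 24 in each contrast, with 1, 3 and 3 at an unadjusted p under 0.05 for double against Eed, double against Ring1B and Eed against Ring1B deficient cells. These small counts moved with single arrays. The count for double deficient cells was 1 without wild type replicates 1 or 3 or double deficient replicate 2, and 5 without wild type replicate 2. The Arid4a call in Eed deficient cells ended without Eed deficient replicate 2, and the 0 in Ring1B deficient cells became 2 without it. Without Ring1B deficient replicate 2 that count was 1, as it was without Eed deficient replicate 1, and without Ring1B or Eed deficient replicate 2 both contrasts against Ring1B deficient cells had 1.

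Dlk1 acts beside the Notch pathway, of which 17 of 20 listed genes were tested. Against wild type, 0 rose and 3 fell in Ring1B deficient cells, 1 rose and 2 fell in Eed deficient cells, and 1 rose and 3 fell in double deficient cells. In these contrasts 6.18%, 13.7% and 29% of all genes were called. The Notch ligands Dll1 and Jag1 fell in all mutants: Jag1 from 212 ± 35 (SD, n = 3) to 104 ± 20.9, 112 ± 28.4 and 133 ± 5.1, and Dll1 from 69.2 ± 5.98 to 32.7 ± 7.13, 38.9 ± 8.17 and 41.8 ± 12.2. Notch3, a receptor, fell in Ring1B deficient cells (-0.86, adjusted p = 0.029). Rbpj, the DNA-binding effector of the pathway, fell in double deficient cells against each of the other genotypes, from 828 ± 121 in wild type to 476 ± 37.3. Adam10, a protease that cleaves Notch receptors, rose from 322 ± 40.9 to 827 ± 141 (Eed deficient) and 989 ± 134 (double deficient). Between mutants, 1 rose and 2 fell in double against Ring1B deficient cells, 1 fell in double against Eed deficient cells, and 1 rose in Eed against Ring1B deficient cells, where 17%, 1.59% and 3.73% of all genes were called.

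Single arrays decided several of these Notch counts. In Ring1B deficient cells the 3 calls became 0 without wild type replicate 1 and 1 without Ring1B deficient replicates 2 or 3. In double deficient cells the 4 became 2 without wild type replicate 3 or double deficient replicates 1 or 2. The 3 against Ring1B deficient cells became 5 without wild type replicate 1. The call against Eed deficient cells ended without double deficient replicates 1 or 3, and that between the single mutants without Ring1B deficient replicate 3 or Eed deficient replicate 3.

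For the thyroid hormone pathway, in which Dio3 acts, 9 of 14 listed genes were tested. Slc16a10, a transporter of thyroid hormone and aromatic amino acids, read 34.9 ± 4.5 (SD, n = 3) in wild type, 31.9 ± 4.99 (Ring1B deficient), 55.6 ± 7.01 (Eed deficient) and 53.3 ± 9.19 (double deficient). It was called higher in Eed and double deficient cells against both wild type and Ring1B deficient cells, with limma adjusted p values from 0.027 to 0.049. Thra, a thyroid hormone receptor, fell in double deficient cells (-0.65, adjusted p = 0.045). Over all genes, 6.18%, 13.7% and 29% were called in Ring1B, Eed and double deficient cells against wild type. Between mutants the shares were 1.59% (double against Eed), 17% (double against Ring1B) and 3.73% (Eed against Ring1B). Limma called 0 of 9 thyroid genes in Ring1B deficient cells against wild type, also 0 at an unadjusted p under 0.05. It called 0 in double against Eed deficient cells, with 2 at an unadjusted p under 0.05. None of the calls in this list was stable to leaving out arrays. The call in Eed deficient cells held only without Ring1B deficient replicates 2 or 3 or double deficient replicates 2 or 3, and that between single mutants only without wild type replicate 1. Both calls in double deficient cells ended without wild type replicate 3, Ring1B deficient replicate 1, Eed deficient replicate 3 or double deficient replicate 1, and 1 of them without wild type replicate 1 or double deficient replicates 2 or 3. The call against Ring1B deficient cells ended without Ring1B deficient replicates 1 or 3 or double deficient replicates 1 or 3, and became 2 without wild type replicates 1 or 2.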

How the data were processed

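Total RNA of 12 samples was hybridised to Affymetrix mouse expression arrays, 1 array each. The deposited unit is intensity: per the submitters' processing notes, the signals come from MAS5, whose version is not given in the sources. After trimming 2% of the values from both ends, every array had a mean of 100, and no further normalization was applied. Of 45037 probe sets other than controls, the platform table names 1 gene for 34945 and several for 932, and does not list 9160. Positions and sequences come from RefSeq (GRCm38.p6), and all 5 members matched by symbol.

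Values were turned into log2(signal + 5). Probe sets above the 40th percentile of their array in at least 3 of 12 arrays, 30027 in all, were fitted with limma 3.58.1 in R 4.3.3, with 1 mean per genotype, an intensity trend and Benjamini-Hochberg adjustment, and called at an adjusted p under 0.05. The fit was tested on simulated data. Lists use the tested probe set of a gene with the highest mean log2 value, with calls from the same adjustment. Precision is limited by having 3 arrays a genotype.

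The members and lists were chosen with earlier results of these data known. Named by rule were every member probe set, up to 3 called genes in each direction, list and contrast, the 3 nearest tested genes on each side, genes inside the interval, the 5 genes most like Meg3, Rnf2, Eed, Pou5f1, Nanog and Sox2. The genes most like Meg3 in the mutant arrays, the genes of imprint maintenance that were not called, and other listed genes named beyond 3 were chosen after their values were seen. Alternatives were quantile normalization, median centring, added values of 1 and 16, no filter and a 60th percentile filter, no trend, 1 probe set per gene, only the genotypes compared, a replicate block and leaving out arrays.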

Additional observations from a re-analysis of the deposited data

How the results depend on the processing

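Arrays with the same replicate number shared part of their deviations from genotype means, and the main fit takes no account of this. Of 18 same-numbered pairs, 14 correlated above 0.1 (from -0.06 to 0.55), and 9 of 12 arrays were closest to their own number. Pairs numbered 1 ran from 0.12 to 0.38, pairs numbered 2 from 0.21 to 0.55 and pairs numbered 3 from -0.06 to 0.17. What the numbers stand for is not given in the sources used here. With the replicate number as a block, the probe sets called rose to 3192 (Ring1B deficient against wild type), 5999 (Eed against wild type), 1950 (double against Eed), 7153 (double against Ring1B) and 2481 (Eed against Ring1B), from 1350, 3238, 383, 4109 and 853. The block called 2 members in double against Eed deficient cells, Dlk1 among them (1.16, adjusted p = 0.041), 1 member between the single mutants, and Meg3 1452905_at in double against Ring1B deficient cells (1.49, adjusted p = 0.016). It gave the other imprinted genes 13 calls in Ring1B deficient cells, 7 in double against Eed and 14 between the single mutants. Flanking genes had 6 in Ring1B deficient, 6 in Eed deficient, 1 in double against Eed and 2 in double against Ring1B deficient cells. Imprint maintenance genes had 4, 5 and 10 against wild type and 1, 7 and 3 between mutants (double against Eed, double against Ring1B, Eed against Ring1B). Notch genes had 8 in double deficient cells and 6 in double against Ring1B, and thyroid genes 1 in double against Eed and 2 in double against Ring1B. In all of these the cause was not tested.

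Scaling moved the balance of calls. Median centring shifted the median of all probe sets in double deficient cells from 0.09 to -0.16 against wild type and from 0.10 to -0.15 against Ring1B deficient cells. The share of calls that were higher went from 63.6% to 31.8% under median centring and 49.5% under quantile normalization in double deficient cells, from 56.1% to 22.8% and 41.8% against Eed, from 69.3% to 29.5% and 52.7% against Ring1B, and from 69.4% to 56.7% under median centring in Eed deficient cells. Double against Eed called 605 probe sets under median centring. No bright member turned direction under either scaling.

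Small list counts moved most, and the cause was not tested. Under quantile normalization thyroid genes had 0, 1, 0 and 0 calls (Eed and double against wild type, double and Eed against Ring1B), the other imprinted genes 2 in double against Eed, and in double against Ring1B flanking genes had 0 and maintenance genes 1. Under median centring thyroid genes had the same 0, 1, 0 and 0, flanking genes 2 and maintenance genes 2 in double against Ring1B, and maintenance genes 7 in double against wild type. An added value of 1 left 0 thyroid calls between the single mutants, and 16 gave 2 other imprinted calls in double against Eed. Without the filter thyroid genes had 0 in Eed, 0 in double and 0 between the single mutants. The 60th percentile filter gave flanking genes 5 in Eed deficient and 0 in double against Ring1B, other imprinted genes 2 in double against Eed, and thyroid genes 2 in double against Ring1B. Without the trend thyroid genes had 1 in double deficient cells and 0 between single mutants.

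Fits to only the genotypes compared, with fewer arrays, called 707 (Ring1B), 1937 (Eed) and 340 (Eed against Ring1B) probe sets, and Meg3 1452905_at in double against Ring1B (1.49, adjusted p = 0.00031). There maintenance genes had 1 in Ring1B, 5 in double and 1 in double against Ring1B, Notch genes 5 in double against Ring1B and 0 between single mutants, and thyroid genes 0 in Eed, 0 in double, 2 in double against Ring1B and 0 between single mutants.

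With arrays left out, singly or all those numbered 2, calls over all probe sets ranged from 806 to 1420 (Ring1B), 1964 to 3365 (Eed), 45 to 449 (double against Eed), 2001 to 4440 (double against Ring1B) and 252 to 939 (Eed against Ring1B). Against the counts from all arrays, single arrays moved these by over 1.5 times: 846 and 806 without Ring1B deficient replicates 2 and 3 (Ring1B), 1964 without Eed deficient replicate 3 (Eed), and 2347, 2533 and 2001 without Ring1B deficient replicate 3 and double deficient replicates 1 and 3 (double against Ring1B). Double against Eed gave 121 and 160 without Eed deficient replicates 1 and 2, and 97, 195 and 45 without double deficient replicates 1, 2 and 3. Eed against Ring1B gave 505 and 252 without Ring1B deficient replicates 1 and 3, 477 and 262 without Eed deficient replicates 2 and 3, and 565 without double deficient replicate 3. Member calls ranged from 0 to 5 (double against Eed), 3 to 8 (double against Ring1B) and 0 to 1 (Eed against Ring1B). Meg3 1452905_at ranged from -4.43 to -3.12 in Eed deficient cells, 0.36 to 1.67 against Eed, 1.38 to 1.59 against Ring1B and -0.18 to 1.12 between single mutants. Between single mutants Meg3 1426758_s_at ranged from -0.21 to 0.40, Meg3 1452183_a_at from -0.18 to 1.31 and Mirg 1440097_at from -0.16 to 0.15. Dlk1 ranged from 0.015 to 1.01 in Eed deficient cells and 0.86 to 1.61 in double against Eed. Maintenance genes ranged from 0 to 2 in Ring1B, 0 to 1 in Eed, 1 to 7 in double, 0 to 2 in double against Ring1B and 0 to 2 between single mutants. Notch genes ranged from 0 to 3 in Ring1B, 2 to 6 in double, 0 to 1 in double against Eed, 2 to 5 in double against Ring1B and 0 to 1 between single mutants. Thyroid genes ranged from 0 to 1, 0 to 2, 0 to 2 and 0 to 1 in Eed, double, double against Ring1B and Eed against Ring1B, other imprinted genes from 1 to 2 in double against Eed and flanking genes from 0 to 1 in double against Ring1B. MAS5 signals near the background limit the dim members, whose differences shrink towards 0 on this scale.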
